A study of Mus musculus with 446 samples.

Results

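Among male mice kept on the control diet, the 20 livers with the most Saa1 messenger RNA were compared with the 20 with the least, over the other genes of the same livers. The 40 livers came from 64 eligible control livers of 74, and from 446 samples in the whole series. A liver was eligible if at least 8000 genes had a TPM (a length-corrected share of a library) of 1 or more. Eligible livers were put in order by scaled Saa1, which is TPM divided by one factor per library. The 24 livers in the middle of the order were used for a separate test, and 10 control livers were under the gene minimum. The members were thus chosen by their measured liver Saa1, and the values of Saa1 and of its neighbours Saa2, Saa3 and Saa4 are given as descriptions with no test. Tests were made on the other genes, which come from the same libraries as the Saa1 values.

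Both groups were male Diversity Outbred mice from the Jackson Laboratory, an outbred stock descended from several inbred founder strains in which every animal has its own genotype. They were 6 weeks old when housed, 1 to a cage, and ate a diet with 10 kcal% fat for the 14 weeks of the study, apart from fasting periods for glucose measurements. The labels name no treatment, transgene or infection that separates the high from the low group. The other mice of the series ate a diet with 60 kcal% fat for 14 weeks. Their livers, and the muscle and abdominal adipose tissue of the same control mice, serve here for comparison. Liver RNA was used only at an RNA quality number of 8 or more, and the libraries were stranded total RNA read on a MiSeq instrument. Each mouse gave one liver library, so n counts mice.

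The acute phase response is the change in protein secretion by hepatocytes during infection, injury or other inflammation. Interleukin-6 acts through its receptor and the transcription factor STAT3, and interleukin-1 and tumour necrosis factor act through NF-kB and C/EBP factors. Together these raise positive acute phase proteins such as serum amyloid A, haptoglobin and the orosomucoids, and lower negative ones such as albumin. Saa1 and Saa2 encode the acute phase forms of serum amyloid A, an apolipoprotein of HDL that can rise very far in mouse liver. Saa4 encodes a constitutive form, and Saa3 is made mainly outside hepatocytes.

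The promoters of the ranking gene and of 4 genes described below are shown because the factors named above bind such regions. They are the 250 bases before the RefSeq transcription start in GRCm38.p6, a reference sequence and not that of the Diversity Outbred animals, written 5′ to 3′ on the gene's strand. Capitals mark every match, on either strand, to the STAT3 motif TTCNNNGAA, the C/EBP motif TTGCNNAA or the NF-kB motif.
Saa1: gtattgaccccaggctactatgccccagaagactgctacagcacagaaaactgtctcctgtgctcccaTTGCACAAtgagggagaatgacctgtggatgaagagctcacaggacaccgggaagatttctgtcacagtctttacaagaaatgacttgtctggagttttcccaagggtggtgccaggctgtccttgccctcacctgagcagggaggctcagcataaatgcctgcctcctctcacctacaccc
Saa2: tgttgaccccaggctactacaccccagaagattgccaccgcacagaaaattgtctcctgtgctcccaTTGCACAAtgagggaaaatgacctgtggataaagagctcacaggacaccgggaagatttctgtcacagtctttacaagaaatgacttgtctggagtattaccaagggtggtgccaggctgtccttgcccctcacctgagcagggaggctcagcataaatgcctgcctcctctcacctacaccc
Orm2: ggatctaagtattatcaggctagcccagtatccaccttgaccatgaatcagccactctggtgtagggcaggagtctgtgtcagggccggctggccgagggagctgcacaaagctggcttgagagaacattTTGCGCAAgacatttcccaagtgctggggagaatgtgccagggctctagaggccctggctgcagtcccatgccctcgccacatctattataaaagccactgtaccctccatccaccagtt
Lcn2: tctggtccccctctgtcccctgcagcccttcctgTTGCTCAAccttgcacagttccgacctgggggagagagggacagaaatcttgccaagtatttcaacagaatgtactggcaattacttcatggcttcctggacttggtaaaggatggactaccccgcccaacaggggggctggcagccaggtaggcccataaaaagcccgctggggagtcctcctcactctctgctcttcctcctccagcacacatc
Steap4: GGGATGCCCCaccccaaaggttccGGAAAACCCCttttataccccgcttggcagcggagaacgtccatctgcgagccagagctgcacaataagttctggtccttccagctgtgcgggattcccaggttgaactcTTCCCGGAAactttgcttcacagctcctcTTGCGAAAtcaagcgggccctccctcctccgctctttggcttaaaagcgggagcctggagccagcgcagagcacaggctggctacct
Saa1 lies at chr7:46742981-46743230 on the minus strand, Saa2 at chr7:46751583-46751832 on the plus strand, Orm2 at chr4:63362199-63362448 on the plus strand, Lcn2 at chr2:32387740-32387989 on the minus strand and Steap4 at chr5:7960222-7960471 on the plus strand. Aligned end to end, the Saa1 and Saa2 sequences were identical at 238 of 251 columns (94.8%), and each held 1 C/EBP match, at 182 and 183 bases before the start. Orm2 and Lcn2 also held 1 C/EBP match each. Steap4 held matches to all the motifs, with 2 of the NF-kB motif. The same scan was made for Hpx, Itih4, Lrg1, Serpina3n and Stat3, whose sequences are not printed. Hpx held 1 C/EBP match and Itih4 held 1 STAT3 match and no C/EBP match. Lrg1, Serpina3n and Stat3 held no match to any of the motifs. Of the 34 genes in the positive acute phase and serum amyloid A lists, 26 had a promoter in the RefSeq table, with 29 promoters in all. The C/EBP motif was in 15 of those 29, against 9.56% of the 32851 promoters in the table. The STAT3 motif was in 6 of 29 against 7.02%, and the NF-kB motif in 1 of 29 against 7.25%. No motif overlapped another in the 5 sequences printed, and a match is a description of letters, not of binding.

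Saa1 itself spanned 3 orders of magnitude in these livers. In the low group it ran from 1.60 to 21.8 scaled TPM with a median of 16.9, and in the high group from 63.5 to 5965 with a median of 128.9. The order had no gap at the borders of the groups. The lowest member of the high group, mouse 75, was at 63.5, and the next liver outside, mouse 31, was at 60.5. The highest member of the low group, mouse 30, was at 21.8, and mice 20 and 17 just outside were both at 22.5. Mice 71 and 74 stood far above the other eligible livers, at 2521 and 5965, and the third, mouse 59, was at 539.2. At the other end mouse 65 had 1.60. Among the control livers under the gene minimum, which were not ranked, mouse 8 (5167 genes) had 3159 scaled TPM of Saa1 and 4101 of Saa2.

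**Figure D1:**
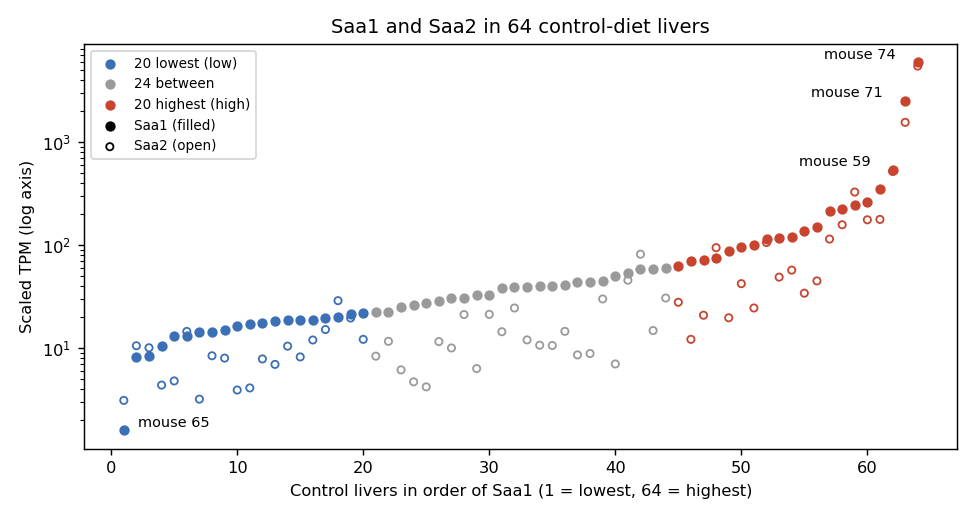
Scaled TPM of Saa1 (filled) and Saa2 (open) on a log axis in the 64 eligible control livers, placed in order of Saa1; blue marks the 20 lowest, grey the 24 between and red the 20 highest. Above mouse 65 (1.60), Saa1 climbs without a wide gap from 8.30 to 349 and then steps to mouse 59 (539.2), mouse 71 (2521) and mouse 74 (5965), while Saa2 follows it with more scatter.

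Saa2 followed Saa1. Its median was 8.36 scaled TPM in the low group and 76.1 in the high group, and 15 of 20 high livers lay above the highest low liver (29.004). In mouse 74 it reached 5489 and in mouse 71 1562. Since the coding parts of Saa1 and Saa2 are near copies, reads could have been split between them, and their separate values are uncertain. Saa4 had medians of 61.1 and 108.9, with 8 of 20 high livers above the low maximum of 116.3. Saa3 did not separate the groups, with medians of 3.41 and 3.36, although mouse 74 had 47.5 and the next eligible liver 15.7.

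With 40 livers compared, no other gene passed the test. Limma on log2(scaled TPM + 1), with Benjamini-Hochberg adjustment over the 12402 genes tested, called 0 genes (0.0%). At an unadjusted p under 0.05 there were 631 genes (5.09%), 301 higher and 330 lower in the high group. The median difference over all genes was 0.001 on the log2 scale. Limma without its trend and robust options also called 0 genes, with 647 at an unadjusted p under 0.05.

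Positive acute phase genes lay mostly above 0. Of 30 genes in the list 29 were tested, 24 of them had a difference above 0, and their median was 0.202. Over all genes tested, 50.4% were above 0 and the median was 0.001. An unadjusted p under 0.05 in the upward direction was reached by 7 of the 29, against 2.43% of all genes, and 0 of the 29 in the downward direction, against 2.66%. The 7 were Serpina3n, Lrg1, Hpx, Orm2, Hp, Itih4 and Steap4. Without mice 71 and 74, 20 of 28 tested members were above 0, the median was 0.056, and the same 7 genes had an unadjusted p under 0.05, against 2.59% of all genes upward. The list was chosen with results of these data known and has no test of its own.

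**Figure D2:**
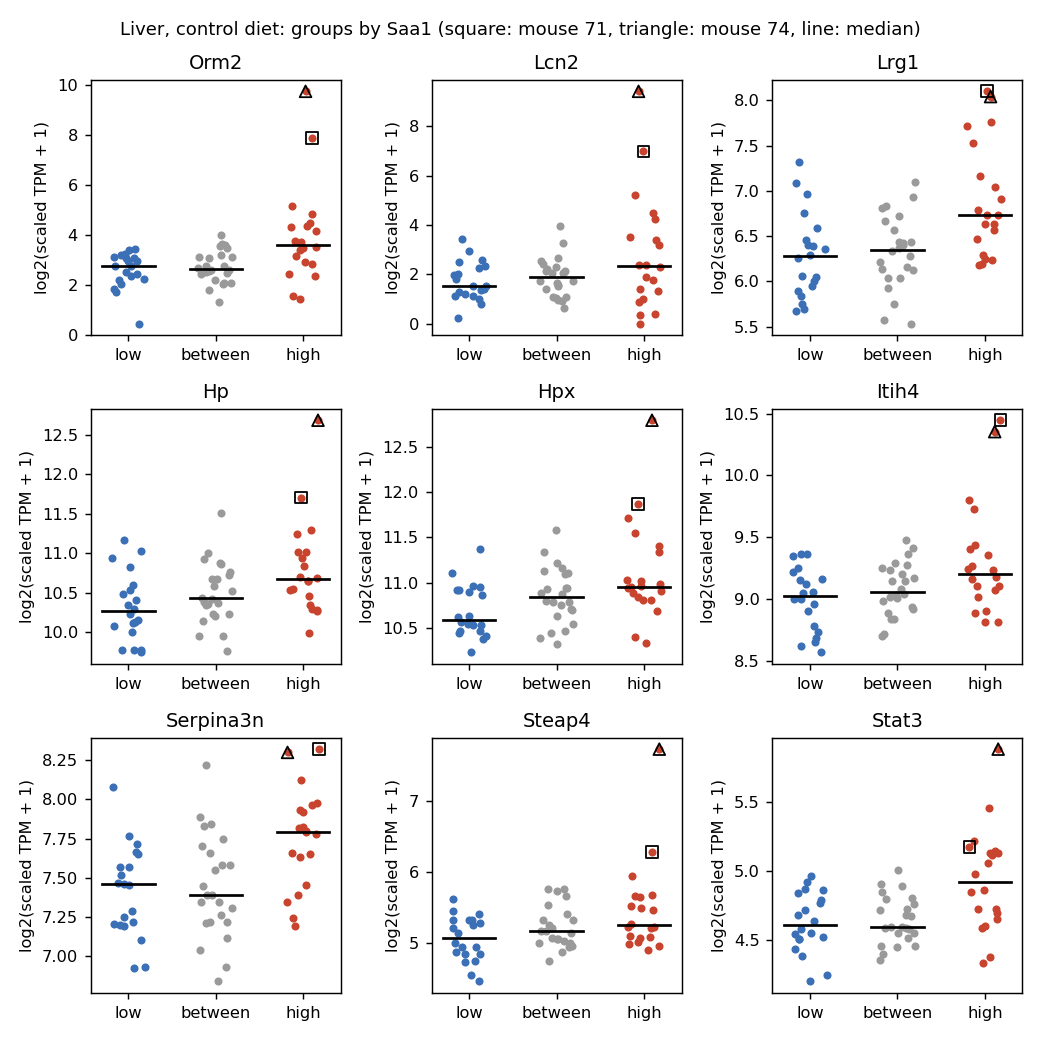
Levels of 9 genes as log2(scaled TPM + 1) in the low, between and high livers, each point a mouse and each line a median; a square marks mouse 71 and a triangle mouse 74. In all 9 panels the high median is above the low median, the groups overlap, and mouse 74 is the highest or second highest liver.

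Orm2, an orosomucoid that carries lipophilic molecules in plasma, had the largest difference of the list. It ran from 0.379 to 9.82 scaled TPM in the low livers (median 5.82) and from 1.72 to 862.7 in the high livers (median 11.3). Of the high livers 12 lay above the highest low liver. The groups overlapped in the other 8, and the livers between had a median of 5.23. The difference was 1.39 ± 0.46 (SE) on the log2 scale, with limma's adjusted p = 0.787 (unadjusted 0.00425). Without mice 71 and 74 it was 0.86 ± 0.28. Orm1, its more abundant neighbour in the gene cluster, had medians of 647 and 703 and a difference of -0.20 ± 0.46. One high liver had only 0.866 scaled TPM of Orm1. The 3 orosomucoid genes are close copies, so reads could have been shared among them.

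Lcn2 encodes lipocalin 2, which binds bacterial siderophores and is also a granule protein of neutrophils. Its medians were 1.86 scaled TPM in the low livers (0.161 to 9.77) and 4.05 in the high livers (0 to 686.9). Of the high livers 6 were above all low livers, while 7 were at or below the low median. The difference was 1.10 ± 0.55 (SE), limma's adjusted p = 0.951, and 0.50 ± 0.38 without mice 71 and 74. Lcn2 thus had a wide range within the high group rather than a level shared by it.

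Lrg1, a secreted leucine-rich glycoprotein induced by interleukin-6, was less extreme and more even. It ran from 50.1 to 159.0 scaled TPM in the low livers (median 76.7) and from 71.4 to 273.4 in the high livers (median 105.6), with 16 of 20 high livers above the low median. The difference was 0.61 ± 0.17 (SE) with limma's adjusted p = 0.787, and 0.48 ± 0.15 without mice 71 and 74. Serpina3n, an inhibitor of serine proteases, had medians of 174.9 and 221.1 and a difference of 0.34 ± 0.10. Without the same mice its difference was 0.28 ± 0.09.

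Haptoglobin (Hp), which captures free haemoglobin, had means of 1336 ± 422 scaled TPM in the low and 1987 ± 1210.3 in the high livers (SD, n = 20 each), with 19 of 20 high livers above the low median. Hemopexin (Hpx), which captures free haem, had means of 1685 ± 358 and 2407 ± 1267. With mice 71 and 74 left out the high means were 1657 ± 419 for Hp and 2073 ± 531 for Hpx (SD, n = 18). With all 40 livers their differences were 0.48 ± 0.16 and 0.42 ± 0.14 (SE), both with limma's adjusted p = 0.787, and 0.33 ± 0.13 and 0.29 ± 0.10 without the same mice. Steap4, a metalloreductase, had medians of 32.7 and 37.0 and a difference of 0.41 ± 0.15, or 0.24 ± 0.10 without those mice. Tfr2, the hepatocyte sensor of transferrin iron, had medians of 99.492 and 111.03. Hepcidin (Hamp), the hormone that blocks iron export and a known STAT3 target, had medians of 435.3 and 545.3, and its difference was 0.04 ± 0.27, of no fixed sign across the alternatives tried. Over the iron and metal list 23 of 30 tested genes were above 0, with a median of 0.061, and 19 of 30 with a median of 0.034 without mice 71 and 74.

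Among the other acute phase proteins, Itih4, an inter-alpha-trypsin inhibitor heavy chain, had a difference of 0.32 ± 0.12 (SE), with 15 of 20 high livers above the low median. The 3 fibrinogen chains, which form the clot, had differences of 0.13 ± 0.10 for Fga, 0.13 ± 0.09 for Fgb and 0.10 ± 0.10 for Fgg. Fgl1, a fibrinogen-like hepatokine, was at 0.41 ± 0.25, and Apcs, serum amyloid P, the main pentraxin of the mouse acute phase, at 0.33 ± 0.24. Crp, the pentraxin that is a major acute phase protein in humans and a minor one in mice, was at -0.15 ± 0.09. Metallothionein Mt1 was at 0.10 ± 0.50 with all mice and at -0.35 ± 0.41 without mice 71 and 74, and it had no fixed sign across the alternatives tried.

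**Figure D3:**
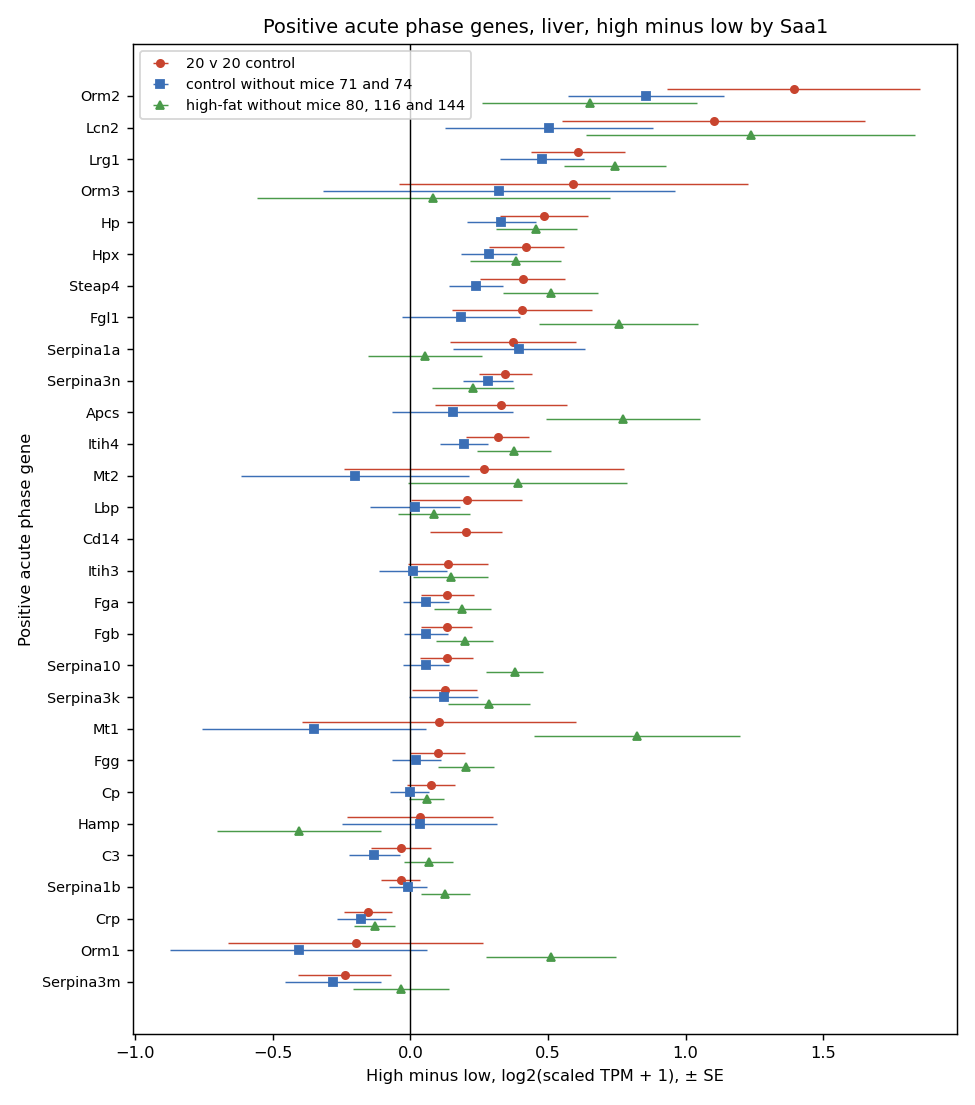
High minus low difference on the log2(scaled TPM + 1) scale with its standard error for each tested positive acute phase gene: red circles, 20 against 20 control livers; blue squares, the same without mice 71 and 74; green triangles, high-fat livers without Liver-80, Liver-116 and Liver-144. Orm2, Lcn2 and Lrg1 lie farthest to the right among the control differences, most blue squares lie nearer to 0 than the red circles, and Cd14 was tested in the 40 control livers only.

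Negative acute phase genes lay on both sides of 0. Of 18 tested, 7 were above 0 and the median was -0.012. Albumin (Alb) had medians of 30017 and 25799 scaled TPM and a difference of -0.16 ± 0.11 (SE). Mouse 74 had the lowest albumin of the 64 livers, 15834. Pon1, the paraoxonase carried on HDL, was the single member at an unadjusted p under 0.05, near the 5.09% of all genes in either direction. Its difference was -0.24 ± 0.11, with limma's adjusted p = 0.949.

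Upstream of these proteins the pathway genes were near 0 with a few exceptions. In the IL-6 receptor and STAT3 list 12 of 27 tested genes were above 0 and the median was -0.023. Of these 27 genes 1 had an unadjusted p under 0.05, near the 5.09% of all genes in either direction. It was Stat3, the transcription factor itself and also its own target. It ran from 17.4 to 30.2 scaled TPM in the low livers (median 23.4) and from 19.1 to 58.1 in the high livers (median 29.3), and 10 of 20 high livers were above every low liver. Its difference was 0.31 ± 0.10 (SE), limma's adjusted p = 0.787, and 0.24 ± 0.08 without mice 71 and 74. The feedback inhibitor Socs3 was at 0.03 ± 0.24 and the receptor Il6ra at -0.03 ± 0.17. The differences of the receptor and the inhibitor were smaller than their errors.

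In the IL-1, TLR and NF-kB list 25 of 32 tested genes were above 0 with a median of 0.060, and 3 had an unadjusted p under 0.05, all upward, against 2.43% of all genes. Without mice 71 and 74 the median was 0.040 over 31 genes. Then 1 member, Tnfrsf1a, had an unadjusted p under 0.05, against 2.59% of all genes upward. Tnfrsf1a, the main receptor for tumour necrosis factor, had medians of 15.6 and 18.7 scaled TPM and a difference of 0.39 ± 0.14 (SE). Icam1, an adhesion molecule for leukocytes, was at 0.32 ± 0.14, and Nfkbiz, an inducible co-regulator of NF-kB, at 0.27 ± 0.12. Il1r1, the signalling receptor for interleukin-1, was at 0.37 ± 0.20. Outside this list, the neutrophil chemokine Cxcl1 had medians of 6.78 and 12.8 with a difference of 0.91 ± 0.41. In the chemokine list 4 of 11 tested genes were above 0 with a median of -0.015. At an unadjusted p under 0.05, 1 of the 11 was higher and 2 were lower, against 2.43% and 2.66% of all genes. Without mice 71 and 74, 2 of 11 were above 0 with a median of -0.094, and 0 were higher and 2 lower at that p. Il1a, a ligand of Il1r1 from the cytokine ligand list, was at 0.32 ± 0.11. Tifa, an adaptor of NF-kB signalling that was also not in the IL-1, TLR and NF-kB list, was above the low median in 19 of 20 high livers, at 0.57 ± 0.20. Limma's adjusted p of the 7 genes named in this paragraph was from 0.787 to 0.951.

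Of the complement genes 22 of 32 tested were above 0, with a median of 0.047, and 17 of 32 with a median of 0.021 without mice 71 and 74. An unadjusted p under 0.05 upward was reached by 7 of them, against 2.43% of all genes. Without the same mice it was reached by 6, against 2.59%. C4b, a component of the classical pathway, had medians of 241.5 and 290.1 scaled TPM and a difference of 0.36 ± 0.12 (SE). The regulators among the list were Clu at 0.20 ± 0.07, C4bp at 0.20 ± 0.07 and Serping1, the C1 inhibitor, at 0.16 ± 0.06. Clu and C4bp were above the low median in 18 of 20 high livers each. The coagulation list had 16 of 24 above 0, a median of 0.034 (0.014 without those mice) and 0 at an unadjusted p under 0.05. The interferon response list had 13 of 31 above 0 and a median of -0.007, and 9 of 31 and -0.029 without them.

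In several metabolic lists most genes were below 0. Of the cholesterol synthesis genes 4 of 25 were above 0 with a median of -0.121, and Fdft1, squalene synthase, was at -0.31 ± 0.14 (SE). Among genes of fatty acid oxidation and PPAR alpha 7 of 32 were above 0, with a median of -0.099, and 4 reached an unadjusted p under 0.05 downward, against 2.66% of all genes. Pdk4, the kinase that blocks pyruvate dehydrogenase in fasting, had medians of 2.54 and 1.31 scaled TPM and a difference of -0.63 ± 0.19, and Eci1, an isomerase for unsaturated fats, -0.28 ± 0.11. Without mice 71 and 74 the counts above 0 were 5 of 25 and 8 of 32. For none of these genes did the adjusted p fall under 0.787.

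Genes of drug and bile acid metabolism were also mostly below 0. In the cytochrome P450 list 15 of 49 tested genes were above 0 (median -0.079), among conjugating enzymes 14 of 39 (median -0.082), and in bile acid synthesis and transport 7 of 27 (median -0.078). Leaving out mice 71 and 74, these medians were -0.034, -0.040 and -0.037, with 18 of 50, 16 of 39 and 9 of 27 genes above 0. Cyp39a1, an oxysterol hydroxylase, was at -0.75 ± 0.24 (SE), Cyp2c38 at -0.99 ± 0.31, the sulfotransferase Sult1a1 at -0.51 ± 0.21 and the male-biased uptake carrier Slco1a1 at -0.21 ± 0.10. Of 19 glucocorticoid targets 2 were above 0, with a median of -0.122. Male-biased liver genes were above 0 in 16 of 22 (median 0.162) and female-biased ones in 2 of 10 (median -0.241). The major urinary protein Mup20 had a difference of 0.79 ± 0.38, and Mup reads are hard to assign among near-identical copies. In the circadian clock list 10 of 19 were above 0 with a median of 0.060, and 11 of 20 with a median of 0.162 without mice 71 and 74. The clock repressor Per2 was at 0.39 ± 0.20, with 16 of 20 high livers above the low median, and at 0.51 ± 0.19 without the same mice. In the other direction Cry1 was at -0.36 ± 0.15 and the nuclear receptor Rora at -0.18 ± 0.07.

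Genes of the endoplasmic reticulum and secretory pathway, through which plasma proteins leave the hepatocyte, were above 0 in 30 of 36 (median 0.075). Surf4, a cargo receptor of that pathway, had medians of 65.4 and 75.0 scaled TPM and a difference of 0.17 ± 0.07 (SE). Without mice 71 and 74 the count was 29 of 36 and the median 0.096. Ribosomal protein genes were above 0 in 9 of 30 (median -0.031) and mitochondrially encoded genes in 2 of 13 (median -0.126), or 4 of 13 (median -0.078) without mice 71 and 74.

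Markers of other cells were compared because a liver piece holds more than hepatocytes. In these bulk samples a change in the number of cells of a type and a change in RNA per cell cannot be told apart. Hepatocyte markers, led by albumin, were abundant in all 40 libraries, with a summed level from 39679 to 69245 scaled TPM in the low and from 33757 to 82818 in the high livers, and none of the 10 was at 0. Of 17 tested Kupffer cell and macrophage markers 15 were above 0 with a median of 0.120, and 8 of 17 with a median of -0.018 without mice 71 and 74. Their sums ran from 144.7 to 472.3 in the low and from 147.4 to 710.7 in the high livers, the highest being mouse 74. Of the 17 tested, 1 had an unadjusted p under 0.05, near the 5.09% of all genes in either direction. It was Clec1b, which was lower in the high livers, with and without mice 71 and 74. Its medians were 5.094 and 3.942 scaled TPM, with 4 of 20 high livers above the low median. The 14 neutrophil markers were too low to be tested. Their sum was from 0.561 to 5.32 in the low livers and up to 6.87 in 19 high livers, and 161.7 in mouse 74, and none of the 14 was at 0 in all 40 libraries. The part of these cells in the Lcn2 and chemokine values of mouse 74 was not tested. Skeletal muscle markers summed to 3700 in low mouse 34 and to at most 24.1 in the other 39, and without mouse 34 limma again called 0 genes, with 601 at an unadjusted p under 0.05. Library measures did not separate the groups: the share of TPM on ribosomal RNA-like genes was 21.4 ± 24.5% in the low and 22.9 ± 25.4% in the high livers (SD, n = 20 each, two-sided permutation test, adjusted p = 0.858 over 5 measures), and genes at TPM 1 or more numbered from 8475 to 13970.

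Using every eligible control liver as a gradient instead of 2 groups, a slope on log2 Saa1 called 48 of 12304 genes (0.39%), 38 rising (0.309%) and 10 falling (0.0813%) with Saa1. Acute phase proteins led it: 8 of 28 tested members of the positive list rose and 0 fell. These were Orm2, Hpx, Lcn2, Lrg1, Itih4, Steap4, Hp and Serpina3n, which include the 7 genes named above. Orm2 rose by 0.54 ± 0.06 (SE) log2 units for each log2 unit of Saa1 (limma's adjusted p = 1.42e-07), Lcn2 by 0.55 ± 0.08 (adjusted p = 7.64e-06) and Lrg1 by 0.20 ± 0.03 (adjusted p = 8.76e-06). In the pathway lists Stat3 rose by 0.11 ± 0.02 (adjusted p = 7.64e-06), as did Tnfrsf1a, Icam1, Il1r1 and Cxcl1. Complement C4b and Serping1, Tifa and Tfr2 were also among the 38. So were genes expressed mainly in leukocytes, among them the kinase Syk and the NADPH oxidase subunit Ncf4, named here after their values were seen. Mouse 74 had the highest Kupffer cell and neutrophil marker sums, and the part of those cells in these slopes was not tested.

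Of the 10 genes that fell with Saa1, 4 are described here. Mpc2, a subunit of the mitochondrial pyruvate carrier, fell by 0.08 ± 0.02 (SE) per log2 unit (limma's adjusted p = 0.00609). Slc16a7, a monocarboxylate transporter that carries pyruvate and lactate into cells, had a slope of -0.11 ± 0.03 (adjusted p = 0.0258). Etfa, which passes electrons from fatty acid oxidation to the respiratory chain, had -0.08 ± 0.02 (adjusted p = 0.011). Kcnn2, a calcium-activated potassium channel, had -0.08 ± 0.02 (adjusted p = 0.00793). In the comparison of 20 with 20 their differences were -0.26 ± 0.09, -0.40 ± 0.13, -0.31 ± 0.09 and -0.26 ± 0.09 in the same order. In mouse 74 Mpc2 and Etfa had the lowest values of the 64 livers, 71.7 and 53.6 scaled TPM.

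This gradient rested on mice 71 and 74. Without mouse 71 it called 27 genes, without mouse 74 it called 12, and without both 0 of 12323 (1071 at an unadjusted p under 0.05, 8.69%). On the rank of Saa1, which gives the extreme livers no extra weight, it called 0 genes (867 at an unadjusted p under 0.05). Without both mice the slopes kept their sign, at 0.29 ± 0.07 (SE) for Orm2, 0.27 ± 0.09 for Lcn2, 0.17 ± 0.04 for Lrg1 and 0.09 ± 0.02 for Stat3. The smallest adjusted p of these was 0.109, for Lrg1 and Stat3.

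**Figure D4:**
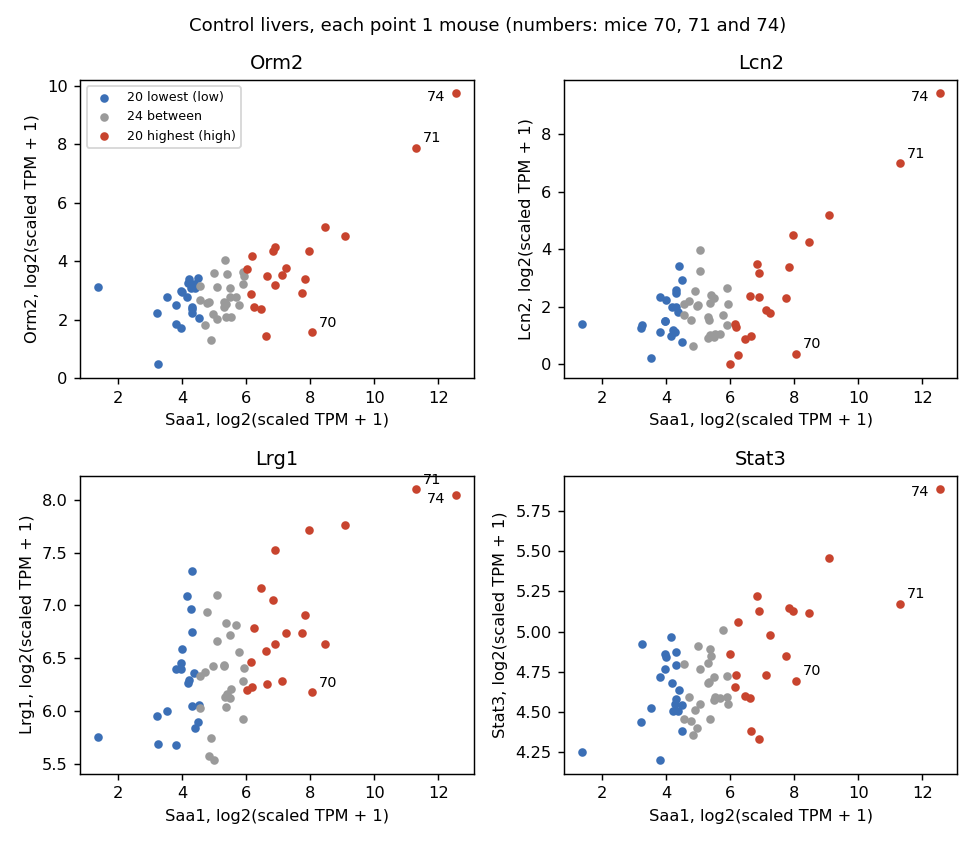
Levels of Orm2, Lcn2, Lrg1 and Stat3 against Saa1, both as log2(scaled TPM + 1), in the 64 eligible control livers; blue, grey and red mark the low, between and high livers and numbers mark mice 70, 71 and 74. Mice 71 and 74 lie at the upper right in each panel, and mouse 70, the fifth by Saa1, lies among the low livers for Orm2 and Lcn2.

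Mice 71 and 74 carried a broad acute phase pattern. Among the 28 positive acute phase genes whose mean reached 1 scaled TPM, mouse 71 had one of the 5 highest of the 64 values for 22 and mouse 74 likewise for 22, against 11.7% and 9.96% of all 12496 genes. Mouse 71 held the highest value for 13 of the 28, against 2.31% of all genes, and mouse 74 for 9, against 2.47%. Mouse 74 led for Lcn2 (686.9), Orm2 (862.7), Hp (6577), Hpx (7093), Steap4 (210.8) and Stat3 (58.1). Mouse 71 led for Fga (4580), Fgb (2092), Fgg (4259), Fgl1 (1148), Apcs (734.7), Orm1 (2062) and Mt1 (329.0). Neither led for Hamp, where they had 382.4 and 521.7 against a highest value of 1335 in mouse 69. The 2 livers therefore shared their height in Saa1 and differed in which partner genes were highest.

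They also differed outside the acute phase. Mouse 74 had 1 of the 5 lowest values for 16 of 26 electron transport genes, 7 of 13 mitochondrially encoded genes and 14 of 39 conjugating enzymes, against 13.1% of all genes, and mouse 71 for 3, 0 and 7, against 12.3%. Mouse 74 had 1 of the 5 highest values for 18 of 30 IL-1, TLR and NF-kB genes, against 9.96% of all genes. For the Kupffer cell and macrophage markers it had 15 of 18. Mouse 71 had 7 and 10 in the same order, against 11.7% of all genes. Each of the pair was among the 5 highest for 15 of 32 complement genes, against the same shares of all genes. These are counts in single livers with no replicate.

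High Saa1 did not bring the other genes with it in every liver. Mouse 70 was the fifth by Saa1 with 264.9 scaled TPM, yet it had 1.95 of Orm2 and 0.291 of Lcn2, both below the median of the 64 livers. Among the 24 livers between the groups, where Saa1 ran from 22.5 to 60.5, the slope on log2 Saa1 called 0 of 12267 genes (0.0%), with 500 at an unadjusted p under 0.05 (4.08%). There Orm2 had a slope of 0.53 ± 0.30 (SE), Lcn2 -0.26 ± 0.38, Lrg1 0.12 ± 0.20 and Hp -0.17 ± 0.19. Positive acute phase genes were above 0 in 17 of 28, against 51.2% of all genes. Cholesterol synthesis genes were above 0 in 1 of 25, with a median slope of -0.308.

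The muscle of the same 40 mice was compared to ask whether liver Saa1 marked other tissues. Limma called 0 of 13564 genes (0.0%), with 784 at an unadjusted p under 0.05 (5.78%). Saa1 in muscle was at most 0.572 scaled TPM in the low and 6.09 in the high mice, and mice 71 and 74 had 0 and 0.361. All 17 tested positive acute phase genes were above 0 with a median of 0.483, against 47.3% of all genes, and 4 had an unadjusted p under 0.05, against 3.32% upward. All 12 tested negative acute phase genes were above 0 too, with a median of 0.830, and so were the 5 tested hepatocyte markers, with a median of 0.911. Haptoglobin in muscle had medians of 18.4 and 38.6 and a difference of 1.02 ± 0.45 (SE, limma's adjusted p = 0.790), Orm1 0.92 ± 0.43 and Lrg1 0.40 ± 0.18. Summed hepatocyte markers in the muscle libraries ran from 0.861 to 545.7 in the low and from 0.387 to 1795 scaled TPM in the high mice. Their medians were 10.5 and 11.6, and the highest sums were those of low mouse 44 and high mouse 39. The part of liver RNA in these muscle values was not tested. In a check on 150 genes picked for their correlation between same-numbered libraries, muscle and liver matched by number in all 40 mice. That choice of genes favours such matches, so the check cannot show by itself that the labels are right. Over all 10891 genes in both tissues, the median correlation was 0.0918 for libraries of the same number and -0.0016 for those of other numbers.

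In abdominal adipose tissue, where the table used here holds 2728 genes, limma called 0 of 2236 genes (0.0%), with 205 at an unadjusted p under 0.05 (9.17%). Of the positive acute phase list 4 genes were tested and 2 were above 0, and of the IL-1, TLR and NF-kB list 6 of 7, against 52.5% of all genes tested there. Lbp, which presents bacterial lipopolysaccharide to CD14, had means of 111.01 ± 39.6 and 133.1 ± 88.7 scaled TPM (SD) and a difference of 0.06, and Steap4, which is abundant in fat, 0.29. In the livers of the same low and high control mice, Lbp had medians of 27.9 and 27.5 scaled TPM. In the same kind of check, the adipose libraries of mice 18, 35 and 39 were not the best match to their livers. Without these mice limma called 0 genes, with 301 at an unadjusted p under 0.05.

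On the high-fat diet the same choice gave 20 high and 20 low livers of 64, with Saa1 from 126.2 to 7802 (median 194.4) against 0.103 to 38.2 (median 22.034). Limma called 0 of 12416 genes (0.0%), with 1211 at an unadjusted p under 0.05 (9.75%). Skeletal muscle markers summed to 88701 and 6999.8 scaled TPM in the low livers labelled Liver-80 and Liver-116. Pancreatic markers summed to 2810 in the high liver labelled Liver-144. Liver-80 also held the lowest Saa1, 0.103, and the next low liver had 6.77. Summed hepatocyte markers in the low livers reached down to 201.4, with a median of 42848. Without Liver-80, Liver-116 and Liver-144 limma called 0 of 12408 (0.0%), with 1417 (11.4%) at an unadjusted p under 0.05. In that comparison 25 of 28 positive acute phase genes were above 0 with a median of 0.255, against 51.3% of all genes, and 11 had an unadjusted p under 0.05, against 6.08% upward. Lrg1 had a difference of 0.74 ± 0.19 (SE), Hp 0.46 ± 0.15, Steap4 0.51 ± 0.17, Stat3 0.23 ± 0.08, Orm2 0.65 ± 0.39 and Lcn2 1.24 ± 0.60. Apcs was at 0.77 ± 0.28 and Fgl1 at 0.76 ± 0.29. Without the 3 libraries all 12 pericentral hepatocyte markers were below 0, with a median of -0.215, and with all 40 livers 5 of 12 were above 0, with a median of -0.093. Cholesterol synthesis genes were above 0 in 19 of 25 without the 3 libraries (median 0.096) and in 21 of 25 with all 40 livers (median 0.168).

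Along the gradient of the high-fat livers without those 3 and without Liver-88, the highest by Saa1, 86 of 12380 genes were called (0.695%), 43 rising (0.347%) and 43 falling (0.347%). Of the positive acute phase list 2 rose, Lrg1 by 0.20 ± 0.04 (SE, limma's adjusted p = 0.0113) and the protein Z-dependent protease inhibitor Serpina10 by 0.12 ± 0.02 (adjusted p = 0.00645). Of the IL-6 and STAT3 list the STAT-induced feedback inhibitors Cish and Socs2 rose, by 0.39 ± 0.10 (adjusted p = 0.0376) and 0.41 ± 0.10 (adjusted p = 0.0429). This count depended strongly on single libraries: it was 1336 (10.8%) with all 64 livers, 2263 without Liver-88 alone and 27 (0.219%) without Liver-80, Liver-116 and Liver-144.

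The difference between the diets was tested as an interaction over all 80 livers, and limma called 0 of 13600 genes (0.0%), with 640 at an unadjusted p under 0.05 (4.71%). The high minus low difference was larger on the high-fat diet by 0.29 ± 0.29 (SE) for Lrg1, by 0.20 ± 0.24 for Steap4 and by 0.84 ± 0.41 for Socs3, and the interaction was -0.64 ± 0.60 for Orm2, with adjusted p from 0.979 to 0.980. Without control mouse 34 and the high-fat livers Liver-80, Liver-116 and Liver-144 it called 0 genes, with 690 at an unadjusted p under 0.05. The interaction was then 0.15 ± 0.26 for Lrg1, 0.09 ± 0.24 for Steap4, 0.72 ± 0.42 for Socs3 and -0.75 ± 0.62 for Orm2. A difference between diets was thus not detectable with 20 livers in each of the 4 groups.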

How the data were processed

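RNA was sequenced from liver, muscle and abdominal adipose tissue of each mouse, and the authors deposited 1 table of TPM values per tissue, with no read counts. The submitters' processing notes list Bowtie 1.2.2, Trim Galore 0.4.4 and FastQC. Which program turned alignments into TPM, on which build and gene models, is not given in the sources used here. Library depth cannot be read from TPM and is unknown, and intervals for counting error were therefore not made. The kit kept strand, but whether counting used it is not stated.

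A trimmed mean of log ratios between each library and a reference (30% of ratios and 5% of levels trimmed) gave 1 scale factor per library, and TPM divided by it is called scaled TPM. Livers with at least 8000 genes at a TPM of 1 or more were ordered by scaled Saa1, and the 20 highest were compared with the 20 lowest. Genes with at least 1 scaled TPM in 14 of the 40 libraries were tested with limma 3.58.1 in R 4.3.3 (trend and robust options, two-sided) on log2(scaled TPM + 1), with Benjamini-Hochberg adjustment over all genes tested and a threshold of 0.05. Fold changes on this scale understate the change of low genes. Gradients used log2(scaled Saa1 + 1) as a slope. Library measures were compared with a permutation test of 100000 resamples. Scripts were tested on simulated data. The p-values measure the spread between mice, which differ in genotype.

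The members and gene lists were chosen with earlier results of these data known. Genes could be named if they were tested members of the positive acute phase, IL-6 and STAT3, or IL-1, TLR and NF-kB lists, were up to 4 lowest-p genes of another list, or had the largest changes past the threshold in a comparison. Of the 250 genes that met this, 52 were described for control livers, and exceptions are marked in the text. Promoters came from RefSeq (GRCm38.p6). Muscle and adipose libraries were paired with livers by the mouse number in their labels. The pairing was checked on 150 genes, picked for their correlation between same-numbered libraries, a choice that favours matches by number. The alternatives are given in the closing section.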

Additional observations from a re-analysis of the deposited data

How the results depend on the processing

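For control livers, 20 against 20, limma gave 0 genes under 22 of 27 alternatives. The others were 1 gene (Gm22420) with 10 against 10, 48 for the slope over all eligible livers, 27 for the slope without mouse 71, 12 without mouse 74 and 53 without mouse 34. With TPM as deposited 0 were called and 0.959% of genes had an unadjusted p under 0.05, against 5.09%. Ranking by deposited TPM kept 17 high and 16 low members. In muscle, TPM as deposited gave 1 gene (Ell2) and a median over all genes of 0.21, and in adipose tissue a median of -0.36. In high-fat livers the slope gave 1336 genes with all livers, 2263 without Liver-88, 27 without Liver-80, Liver-116 and Liver-144, and 86 without all 4. Over 52 named genes, 1310 of 1394 pairs of gene and alternative kept direction and side of the threshold, 65 passed it newly and 19 changed sign, in 4 genes. Orm1 was at 0.126 when ranked by deposited TPM, 0.0927 with 32 against 32, 0.0345 as a slope and 0.0373 as a slope without mouse 34. Hamp was at -0.033 with TPM as deposited, -0.0848 when ranked by it, -0.0392 without libraries labelled with a second number and -0.00393 without mouse 34. Mt1 was at -0.0115 when ranked by deposited TPM, -0.0182 with 32 against 32, -0.156 without mouse 71, -0.0658 without mouse 74, -0.35 without both and -0.0712 for the slope without both. Socs3 was at -0.00394 with a pseudocount of 0.1, -0.01 without second-number libraries, -0.0112 without mouse 71, -0.026 without mouse 74 and -0.076 without both. The cause of these changes was not tested. No paired analysis was possible because the high and low livers came from different mice that share no number. Depth is unknown, so low genes carry an error that cannot be stated.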
